A study of Mus musculus with 6 samples.

Results

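The genes described here are 50 genes of the cell cycle and of DNA replication, taken by name from the 32285 genes of the feature list. Each of the 50 names matched exactly 1 row. By role, 22 act in DNA replication, 23 act in mitosis and 5 are cell-cycle genes that are also expressed broadly (Cks1b, Cks2, Hmgb2, Stmn1 and Tubb5). They were followed in single-cell RNA profiles of leukocytes from mouse tumours. In female mice of the C57BL/6J strain, 10 to 12 weeks old, a breast cancer line that metastasises to the brain had been injected either into the brain (group BrM) or into the mammary fat pad (group MFP). Both sites therefore carry the same tumour line in the same strain, and there was no tumour-free group. Each site has 3 libraries. Sorting took cells with the leukocyte marker CD45 and the nuclear stain RedDot-1 but without DAPI, which enters dead cells. CD11b was stained but is not part of the stated gate. Transcripts were tagged at their 3′ end with the 10x chemistry and counted as unique molecular identifiers (UMIs), so that PCR copies count once. Whether the libraries are separate animals is not in the labels. In comparisons between sites, the spread that enters each p-value is that between these libraries, which may be technical. Comparisons between classes have the library as a term, which removes differences between libraries. Their spread is that of the class difference from library to library.

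A dividing cell licenses its replication origins with the MCM helicase (Mcm2 to Mcm7), copies its DNA with the sliding clamp PCNA and nucleotides made by ribonucleotide reductase (Rrm1, Rrm2), and then divides under cyclin B and its kinase CDK1. E2F transcription factors switch on the replication genes when the retinoblastoma protein is phosphorylated, and the MuvB complex with B-MYB and FOXM1 switches on the mitotic genes later. Resting lymphocytes keep both programmes low and start them after antigen or cytokine signals.

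The promoters of the 2 groups differ in the words that E2F and MuvB factors are known to read, and 5 are shown. These were picked from the members whose values are given in every library below, and are not a representative set. Each line holds the 150 bases before the start given by RefSeq, on the gene's strand, in build GRCm38.p6. Capitals mark words searched on both strands. They are the E2F words TTTCCCGC, TTTGGCGC, TTTCGCGC and TTTGCCGC, the CCAAT box read by NF-Y, and TTTGAA, the core of the cell cycle genes homology region (CHR) read by MuvB; ATTGG and TTCAAA are the same words read from the other strand. The replication genes Mcm5 (8:75109359-75109508, plus strand) and Mcm6 (1:128359706-128359855, minus strand) encode helicase subunits.
Mcm5: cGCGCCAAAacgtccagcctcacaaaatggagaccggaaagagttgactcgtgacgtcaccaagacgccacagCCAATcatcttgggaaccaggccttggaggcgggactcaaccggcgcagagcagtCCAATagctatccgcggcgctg
Mcm6: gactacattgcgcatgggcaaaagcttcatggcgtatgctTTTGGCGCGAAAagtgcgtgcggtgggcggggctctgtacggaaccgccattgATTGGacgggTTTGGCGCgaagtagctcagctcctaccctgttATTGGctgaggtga
The mitotic genes Cdk1 (10:69352913-69353062, minus strand), Mki67 (7:135716380-135716529, minus strand) and Top2a (11:99024190-99024339, minus strand) encode the mitotic kinase, the proliferation marker Ki-67 and topoisomerase II alpha.
Cdk1: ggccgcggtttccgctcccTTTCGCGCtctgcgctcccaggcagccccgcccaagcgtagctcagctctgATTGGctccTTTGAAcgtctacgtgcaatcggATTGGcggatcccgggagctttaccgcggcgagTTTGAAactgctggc
Mki67: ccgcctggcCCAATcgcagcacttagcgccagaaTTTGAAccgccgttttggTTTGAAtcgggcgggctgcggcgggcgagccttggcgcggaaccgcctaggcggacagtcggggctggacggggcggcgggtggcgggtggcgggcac
Top2a: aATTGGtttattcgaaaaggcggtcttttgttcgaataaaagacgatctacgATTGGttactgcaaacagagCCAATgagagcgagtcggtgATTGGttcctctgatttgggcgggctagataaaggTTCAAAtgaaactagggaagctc

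Over windows of 300 bases (250 before the start and 50 after it), 43 of the 50 members had a RefSeq window, 49 windows in all. An E2F word was in 10 of the 25 windows of replication genes (40%), in 1 of the 20 windows of mitotic genes (5%) and in 2.26% of all 32851 windows. TTTGAA was in 3 of 25 replication windows (12%), 15 of 20 mitotic windows (75%) and 17.9% of all windows. The CCAAT box was common in both groups, at 60% and 90% against 37.4% of all windows. Both TTTGAA and CCAAT stood in 75% of mitotic windows, 8% of replication windows and 6.95% of all windows. Matches to different motifs (E2F, CCAAT or TTTGAA) overlapped in 1 place in the members' windows, while E2F words could overlap each other, as in Mcm6. A match is a description of the letters and not a measured binding site.

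Cells were assigned to classes by UMIs of marker genes, none of which is one of the 50. T cells had CD3 genes; regulatory T cells (Treg) also had Foxp3, gamma-delta T cells Trdc, CD8 T cells Cd8a or Cd8b1, and CD4 conventional T cells Cd4 without the others. NK cells had NK receptor genes without CD3 genes, and NK-receptor T cells had both. The label Treg was checked on genes left out of the gate: Il2ra, Ctla4, Ikzf2 and Tnfrsf4. They summed to a mean of 4450 CPM (UMIs per 1000000 UMIs of the class and library) in Treg cells and 1240 CPM in CD4 conventional T cells. The Treg gate does not exclude Cd8 genes: Cd8a and Cd8b1 summed to 22.8 to 630 CPM across libraries in Treg cells. They stood at 1012 to 1462 CPM in CD8 T cells and at 0 in CD4 conventional T cells, whose gate excludes them. Of 49518 barcodes, 46891 cells were kept and 40451 entered a class; 2803 cells with markers of several lineages were left out. Libraries held 50692794 to 70944735 UMIs and differed in make-up. BrM 1, MFP 1 and MFP 2 had the lower UMI totals and were 96.8, 97.7 and 99.1% lymphoid. BrM 2, BrM 3 and MFP 3 had the higher totals and were 45.7, 49.8 and 30.7% lymphoid. Each site thus holds both kinds of library in unequal number, and results by site are given within each kind as well. Any 2 libraries shared 10 to 39 barcodes. The macrophage genes C1qa, C1qb, C1qc and Apoe moved with library kind inside the lymphocyte classes, from 8.85 to 13.1 CPM in CD8 T cells of the lower libraries against 250.1 to 439 CPM in the higher ones. The part of such RNA from other cells in the results was not tested.

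The share of cells with many UMIs of the 45 replication and mitotic genes was compared between classes. With gates on all UMIs and cells then thinned to 2000 UMIs, Treg cells had the largest mean share. NK cells had the smallest among the T and NK classes. To compare cells of different depth, each was thinned to 2000 UMIs. The 2394 shallower cells were left out, which kept 7688, 7250 and 7452 cells of BrM 1, 2 and 3 and 7718, 8224 and 6165 of MFP 1, 2 and 3. A first call of at least 4 such UMIs from at least 3 genes took 10.0% ± 3.90 (SD, n = 6) of B cells and 1.67% ± 2.27 (SD, n = 3) of neutrophils, which are classes that should hold few dividing cells. A stricter call of at least 10 UMIs from at least 5 genes took 0 of 983 B cells (exact binomial upper limit 0.375%) and 0 of 725 neutrophils (upper limit 0.508%). The stricter call was added after these shares were seen and is used below for the word cycling.

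By the stricter call, the share of cycling Treg cells was 10.9, 27 and 39.1% across BrM 1 to 3 and 19.0, 5.63 and 9.09% across MFP 1 to 3. Without thinning the same call took 15.5 to 41.5% of Treg cells and 0 to 1.72% of B cells. It then took 24.1 to 49.7% of NK-receptor T cells, so that the highest share was not in Treg cells. After thinning the Treg mean was 18.5% ± 12.7 (SD, n = 6), above the 6.18% ± 5.77 of CD4 conventional T cells and the 9.32% ± 6.60 of CD8 T cells, while the ranges of the 3 classes overlapped. Among CD4 conventional T cells the BrM libraries gave 3.25, 10.6 and 15.8% and the MFP libraries 2.72, 1.05 and 3.61%. The lowest BrM library therefore lay below the highest MFP library. Among CD8 T cells the shares were 1.31, 18.0 and 12.0% in BrM and 6.25, 3.63 and 14.8% in MFP. Here the 3 libraries of higher UMI total, from both sites, lay above the 3 others.

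NK cells were cycling at 0.257, 6.87 and 2.87% in BrM and 0.528, 0.343 and 1.70% in MFP, a mean of 2.09% ± 2.55 (SD, n = 6). NK-receptor T cells reached 3.92, 22.5 and 19.4% in BrM and 6.79, 2.85 and 17.3% in MFP, with the same split by library kind as CD8 T cells. Gamma-delta T cells had a mean of 3.62% ± 2.47. Outside the lymphocytes, type 1 conventional dendritic cells (cDC1), which cross-present antigen, were cycling at 12.4% in BrM 2, 17.0% in BrM 3 and 14.3% in MFP 3; the other libraries held under 20 such cells. Macrophages were cycling at 4.89% ± 0.936 (SD, n = 6), with a range of 3.92 to 6.43%. The lower libraries held few macrophages: 3 of 55 were cycling in BrM 1, 2 of 51 in MFP 1 and 1 of 24 in MFP 2. The small SD therefore does not show that libraries were alike. Of 357 plasmacytoid dendritic cells, 0 passed the call (upper limit 1.03%).

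**Figure D1:**
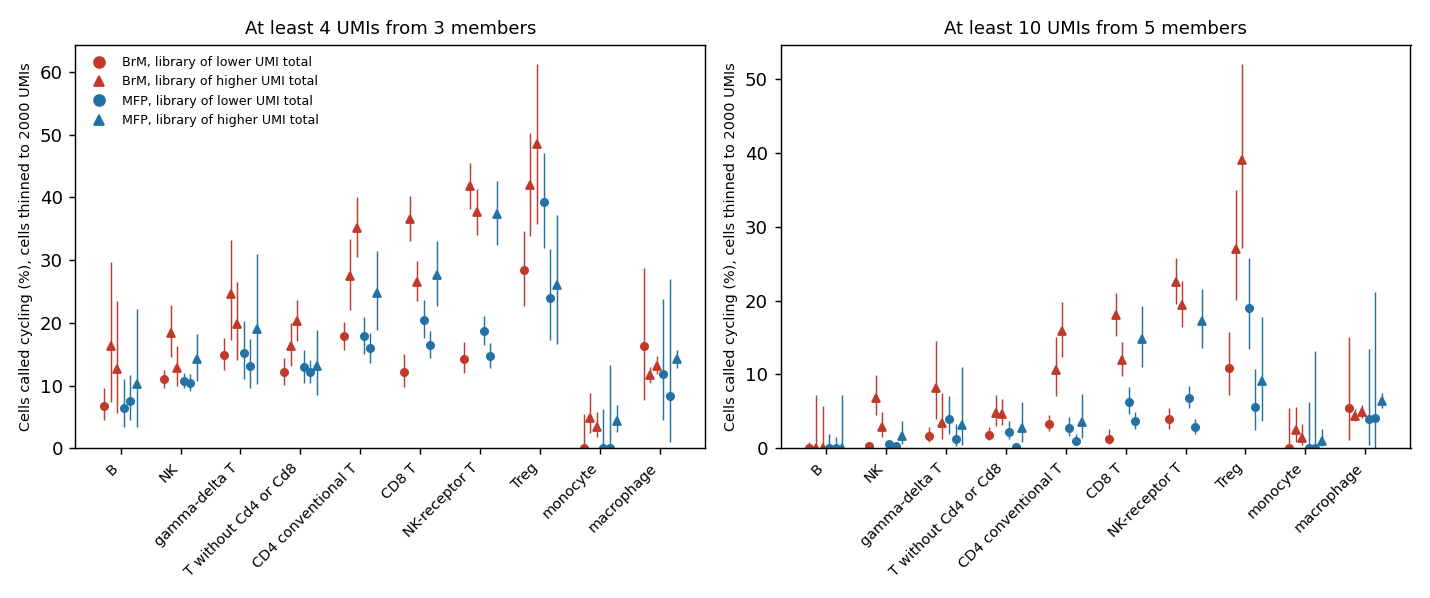
Share of cells called cycling (%) per library in 10 cell classes, by the first call (left) and the stricter call (right), after thinning to 2000 UMIs; points are libraries and bars are exact 95% binomial intervals, which cover counting error only. Treg cells reach 39.1% in BrM 3 by the stricter call, while every B cell library is at 0.

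The order of the classes depended on how marker UMIs were read. The Treg gate takes a single Foxp3 UMI, and cycling cells held more UMIs: the median was 15028 UMIs in cycling Treg cells and 5327 in other Treg cells. With the gates read on the thinned cells, CD8 T cells had the highest mean share of the 6 T and NK classes, 12.6% ± 7.95 (SD, n = 6), followed by Treg cells at 9.53% ± 7.86 and NK-receptor T cells at 7.32% ± 6.39. CD4 conventional T cells then had 4.97% ± 4.66 and NK cells 1.91% ± 1.96. With these gates the CD4 conventional T cell shares were 3.29, 8.44 and 12.8% in BrM and 1.85, 0.979 and 2.46% in MFP, and the sites did not overlap.

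Doublet scores also differed. Among cycling cells, 12.7% had a Scrublet doublet score in the top 7% of their library, against 6.91% of other cells. The left-out cells with markers of several lineages were cycling at 9.33%, with a median of 12399.5 UMIs. Both measures moved with the cycling call, and their part in it was not tested.

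**Figure D2:**
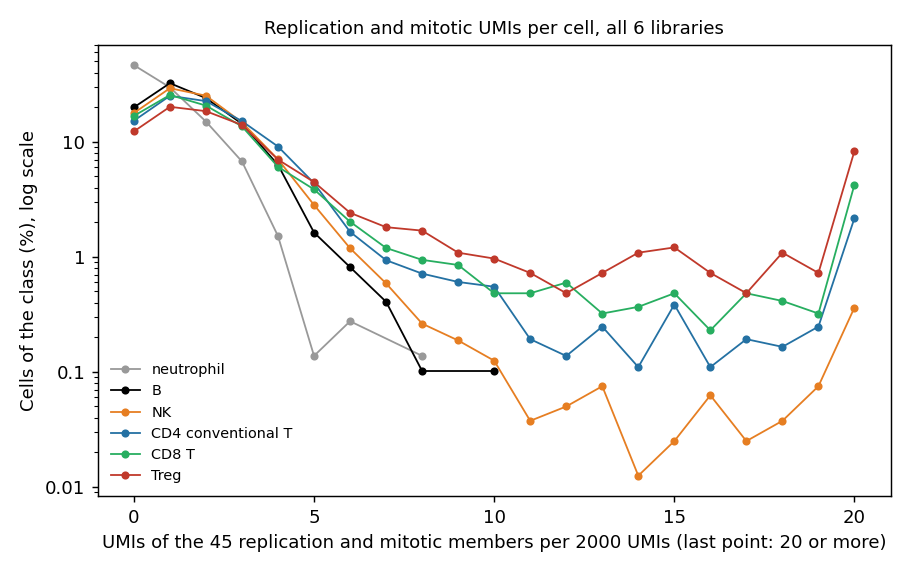
Cells of a class (%, log axis) by the number of UMIs of the 45 replication and mitotic genes per 2000 UMIs, pooled over the 6 libraries; lines are 6 cell classes and the last point holds 20 UMIs or more. No B cell had over 10 UMIs, while the last point, which pools all counts of 20 or more, holds 8.33% of Treg, 4.25% of CD8 T, 2.17% of CD4 conventional T and 0.363% of NK cells.

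Single genes differed in how well they separated the classes at this fixed depth. Mki67 was detected in 17.4% of 828 Treg cells, 7.37% of CD8 T cells, 5.53% of CD4 conventional T cells and 1.41% of NK cells. It was detected in 1.02% of B cells and 1.93% of neutrophils, so that the NK share lay between those of classes with 0 cells past the stricter call. These shares pool libraries of unlike make-up. Rrm2 was detected in 8.94% of Treg cells against 1.12% of B cells, and Cdk1 in 6.04% against 0.305%. Pcna did not set the classes apart: it was detected in 32.1% of Treg cells, 31.8% of CD8 T cells, 31.9% of NK cells and 30.4% of B cells. Slbp, which binds histone mRNA, gave 31.8% of Treg and 36.2% of B cells. The mitotic gene Cenpa was detected in 29.1% of Treg and 20.5% of B cells, above the 14.7% of CD8 T and 8.77% of NK cells. Median depths before thinning were 4554.5 to 7643 UMIs per library in Treg cells and 2546 to 3726.5 in B cells.

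Summed over each class, replication genes exceeded mitotic genes in mean CPM in all 15 classes, and the balance between them varied. In such sums, fewer cycling cells and less RNA per cycling cell cannot be told apart. Treg cells held 2673 CPM ± 1118 of replication UMIs and 1767 CPM ± 718 of mitotic UMIs (SD, n = 6), so that mitotic UMIs made up 39.6% ± 5.26. In NK cells these values were 1058 CPM ± 324, 369 CPM ± 255 and 23.9% ± 6.04. In B cells they were 673 CPM ± 87.6, 189 CPM ± 12.6 and 22.1% ± 2.00, in a class with 0 cells past the stricter call. The mitotic share was 32.7% in CD8 T cells, 36.0% in CD4 conventional T cells, 27.1% in gamma-delta T cells and 39.9% in macrophages. Without Mki67, Top2a and Pcna it was 22.9% in NK, 25.6% in gamma-delta T and 26.3% in B cells, so that the order of B cells against both turned. Cenpa stayed in these sums, and was detected in 20.5% of B, 17.7% of gamma-delta T and 8.77% of NK cells. Its part in the mitotic share was not tested.

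Within cycling cells the balance could be read per cell. Of 367 cycling CD8 T cells, 147 were weighted to replication, 62 to mitosis and 158 to both. Treg cells had 56, 26 and 55 of 137, and NK cells 36, 10 and 25 of 71. Cycling macrophages stood nearer to mitosis, with 110 weighted to replication, 130 to mitosis and 133 to both of 373. These cells come from up to 6 libraries and are given as counts with no test.

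**Figure D3:**
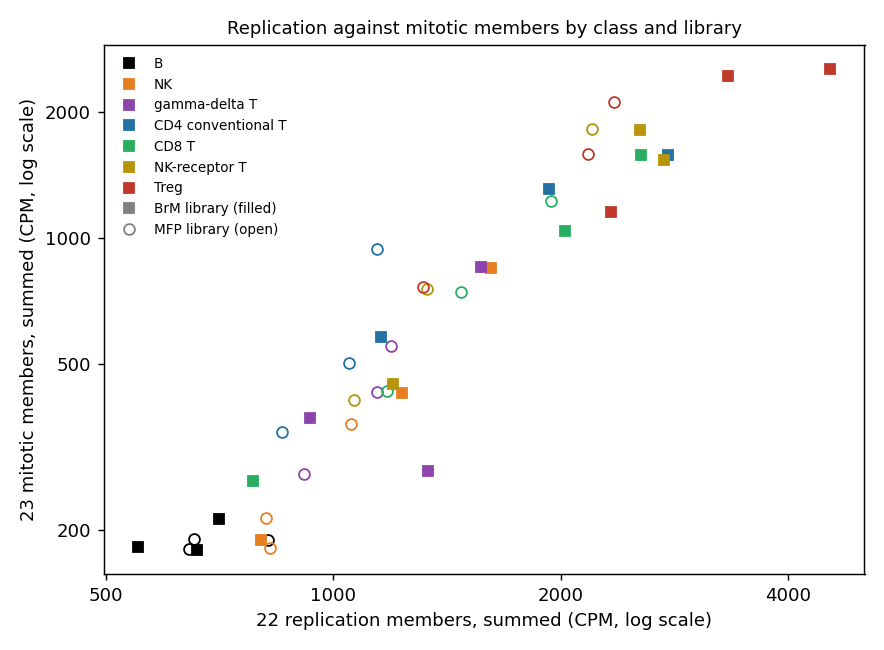
Summed CPM of the 22 replication genes (horizontal, log axis) against that of the 23 mitotic genes (vertical, log axis); each point is 1 library of 1 of 7 classes, filled for BrM and open for MFP. B cell libraries lie at 552 to 819 CPM of replication genes and the highest Treg library at 4543.

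Treg cells were compared with CD4 conventional T cells within libraries, by the quasi-likelihood test of edgeR with the library as a term and Benjamini-Hochberg adjustment over all genes. Of the 50 genes, 47 were higher in Treg cells and 0 lower, where 18.3% of 9243 genes tested were called higher. The median log2 difference of the 50 was 1.05, and that of all genes was -0.01. All 22 replication genes but Slbp (log2 difference 0.12) were called, as were all 23 mitotic genes but Kif23 (0.43) and Kif20a (0.91), and all 5 broadly expressed ones.

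Rrm2, the regulated subunit of ribonucleotide reductase, had the smallest p. It stood at 132, 182 and 333 CPM in Treg cells of BrM 1 to 3 and at 114, 34.7 and 93.3 CPM in MFP 1 to 3, against 36.0, 89.2 and 125 and 29.5, 15.4 and 40.1 CPM in CD4 conventional T cells. Treg cells were higher in each of the 6 libraries, and the log2 difference was 1.49 ± 0.12 (SE; edgeR adjusted p = 5.3e-08). Mcm3 stood at 119, 172, 237, 127, 65.8 and 114 CPM in Treg cells, in the same order of libraries, and at 47.5, 84.3, 126, 38.5, 27 and 29.8 CPM in CD4 conventional T cells, with a log2 difference of 1.31 ± 0.11. Mcm5 stood at 91.1, 101, 144, 83.7, 37.1 and 80.0 CPM against 31.6, 50.3, 72.5, 23, 17.0 and 29.8 CPM, with a log2 difference of 1.33 ± 0.12. Mcm6 stood at 143, 177, 252, 137, 112 and 156 CPM against 70.3, 107, 152, 68.0, 58.1 and 60.5 CPM (0.94 ± 0.09). These helicase subunits were higher in Treg cells in all 6 libraries.

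Pclaf, a partner of PCNA, and Dut, which removes dUTP, completed the 6 genes of smallest p. Pclaf stood at 222, 403, 521, 233, 76.5 and 251 CPM in Treg cells and 64.1, 183, 279.6, 46.1, 19.1 and 49.5 CPM in CD4 conventional T cells (log2 difference 1.67 ± 0.15). Dut stood at 254, 494, 657, 362, 215 and 257 CPM against 131, 266, 465, 160.1, 119.8 and 136 CPM (0.87 ± 0.08). Both were higher in Treg cells of every library.

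Among mitotic genes, Mki67 stood at 187, 291 and 313 CPM in Treg cells of BrM and 294, 72.9 and 213 CPM in those of MFP, against 72.1, 169 and 179 and 64.0, 33.6 and 137 CPM in CD4 conventional T cells. MFP 2 was the lowest library in both classes. The log2 difference was 1.17 ± 0.15 (edgeR adjusted p = 1.3e-05). Cyclin B1 (Ccnb1), which activates CDK1, had the largest mitotic difference at 1.80 ± 0.18. Cdk1 stood at 57.6, 117, 127, 82.0, 16.7 and 74.2 CPM in Treg cells and 26.8, 63.0, 79.3, 21.2, 13.9 and 39.2 CPM in CD4 conventional T cells (1.05 ± 0.15), and Top2a at 166, 341, 315, 258, 52.6 and 239.9 CPM against 88.7, 189, 201, 68.4, 49.4 and 143 CPM (0.91 ± 0.15). Pcna, at 295, 375, 498, 267, 171 and 286 CPM against 209.7, 269, 358, 191, 174 and 211 CPM, was higher in 5 of 6 libraries (0.39 ± 0.08; edgeR adjusted p = 0.0015). The chromatin protein Hmgb2 stood at 1309, 2573, 3146, 2182, 1076 and 1711 CPM against 944, 1471, 2024, 731, 667 and 758 CPM (0.88 ± 0.11), higher in every library.

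Other genes of the pathway outside the 50 were tested in the same fit. Of 11 E2F and pocket protein genes, 7 were higher in Treg cells and 0 lower, among them the atypical repressor E2f8 (log2 difference 1.47) and the mitotic activators Mybl2 (1.45) and Foxm1 (1.14). Of 10 licensing and checkpoint genes, 7 were higher and 0 lower, led by Fbxo5 (1.52), an inhibitor of the anaphase-promoting complex. G1 cyclins and kinases split 4 higher and 1 lower of 7: Cdk2 was at 1.15 and Ccnd3 at -0.42. The 7 genes listed under quiescence were Btg1, Btg2, Tob1, Klf2, Foxo1, Pik3ip1 and also Myc. Of these, 4 were lower (15% of all genes were called lower) and 1 was higher. The lower ones include the anti-proliferative genes Btg2 (-1.07), Tob1 (-0.80) and Btg1 (-0.69). CDK inhibitors split 2 higher and 1 lower of 6.

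Reading the gates on thinned cells left 26 of 48 genes tested higher in Treg cells (9.91% of all genes), with a median of 0.73. The gate of CD4 conventional T cells excludes Cd8 UMIs and that of Treg cells does not. Without the Treg cells that had Cd8 UMIs, 45 of the called genes kept direction and call and 2 lost the call. The share of all genes called in that fit is not given.

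CD8 T cells were set against CD4 conventional T cells in the same way. Over all 6 libraries 6 of the 50 genes were higher in CD8 T cells and 0 lower by edgeR, against 12.6% of 10880 genes called higher. This count is near the share over all genes and does not set the 50 apart. The median was 0.25. The 6 are the helicase genes Mcm2 (0.72 ± 0.17), Mcm4 (0.49 ± 0.15) and Mcm7 (0.54 ± 0.16), Slbp (0.25 ± 0.07), beta-tubulin Tubb5 (0.71 ± 0.12) and the microtubule regulator Stmn1 (0.67 ± 0.23). The count moved with single libraries: 16 genes were called without BrM 1, 14 without BrM 3, 3 without MFP 3 and 2 without BrM 2, MFP 1 or MFP 2. The share of all genes called in these fits is not given, so the counts do not set the 50 apart from other genes.

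In order of BrM 1 to 3 and MFP 1 to 3, Tubb5 stood at 288, 636, 538, 459, 334 and 608 CPM in CD8 T cells and 265, 452, 540.4, 245, 196 and 319.7 CPM in CD4 conventional T cells. Mcm2 stood at 18.6, 66.7, 60.3, 33.3, 28.9 and 53.5 CPM against 24.3, 28.3, 54.7, 23, 15.0 and 23 CPM. CD8 T cells were lower than CD4 conventional T cells in BrM 1 for Mcm2. Mcm4 stood at 32.9, 70.3, 59.7, 43.9, 41.5 and 52.9 CPM against 37.5, 47.4, 72.5, 28.6, 29.5 and 24.7 CPM, and Mcm7 at 38.0, 86.5, 72.7, 54.4, 48.5 and 76.4 CPM against 44.6, 65.9, 91.6, 33.2, 27.2 and 35.0 CPM. Both were lower in CD8 T cells of BrM 1 and BrM 3 and higher in all MFP libraries. Slbp stood at 191, 273, 263, 198, 193 and 239 CPM against 207, 222, 261, 183, 185 and 227 CPM, and Stmn1 at 109, 632, 452, 309, 198 and 508 CPM against 207, 412, 504, 134, 107 and 201 CPM.

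Within the MFP libraries, 40 of the 50 genes were higher in CD8 T cells (15.2% of genes called higher), at a median of 0.81. Within the BrM libraries no gene was higher and 1 was lower, Cks2 at -0.47 (11.5% of genes called in either direction), at a median of -0.24. The difference between the sites in this contrast was not tested. With the gates read on thinned cells, 37 of 50 were higher over all libraries (14.6% of genes), at a median of 0.75. In the fit of all 6 libraries, 3 of 7 CDK inhibitors were lower in CD8 T cells, among them Cdkn1a (-1.27), where 14.4% of all genes were called lower. Of the 7 genes listed under quiescence 4 were higher, led by Pik3ip1 (1.37), and 2 lower, against the 12.6% and 14.4% of all genes.

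NK cells were lower than CD8 T cells for 46 of the 50 genes and higher for 0, against 27.1% of 10893 genes called lower by edgeR. The median was -1.12 for replication genes and -1.66 for mitotic genes, and -0.00 for all genes. Fen1 (-0.26), Cks2 (-0.17), Kif23 (0.01) and Slbp (-0.00) were not called. Reading the gates on thinned cells gave 48 lower of 50 (26.7% of genes), at a median of -1.59.

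Cyclin B2 (Ccnb2) stood at 2.36, 12.9 and 13.3 CPM in NK cells of BrM and 3.25, 2.88 and 8.94 CPM in those of MFP, against 4.92, 57.4 and 40.1 and 25.8, 16.5 and 41.8 CPM in CD8 T cells. NK cells were lower in every library, and the log2 difference was -2.35 ± 0.17 (SE; edgeR adjusted p = 6.6e-08). Mki67 stood at 11.8, 103, 43.5, 21.2, 11.1 and 46.1 CPM in NK cells and 26.4, 214, 122, 93.9, 45.3 and 190.0 CPM in CD8 T cells (-1.78 ± 0.14). Both classes had their highest Mki67 level in BrM 2. Tubb5 stood at 172, 369, 257, 214, 209 and 222 CPM in NK cells against the CD8 T cell values above (-1.07 ± 0.09). Among replication genes, the checkpoint adaptor Clspn stood at 5.50, 30.4, 12.2, 6.63, 4.52 and 11.3 CPM in NK cells and 12.5, 61.4, 44.9, 31.8, 18.8 and 51.1 CPM in CD8 T cells (-1.88 ± 0.16).

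Dut stood at 46.9, 183, 120.4, 49.9, 58.6 and 97.8 CPM in NK cells and 78.9, 355, 258, 189.5, 146 and 226 CPM in CD8 T cells (-1.33 ± 0.11). Mcm3 stood at 20.2, 68.0, 35.0, 23.5, 22.8 and 40.5 CPM against 29.7, 122, 89.0, 72.7, 52.7 and 101 CPM (-1.27 ± 0.11). All of these were lower in NK cells of every library. Pcna, at 189.5, 258, 253, 192, 183 and 230.0 CPM against 157, 314, 290.4, 229, 209 and 289 CPM, was higher in NK cells in BrM 1 and lower in the other 5 libraries (-0.27 ± 0.06; edgeR adjusted p = 0.0028).

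Of the other genes of the pathway, 8 of 11 E2F and pocket protein genes and 9 of 10 licensing and checkpoint genes were lower in NK cells, with E2f7 at -1.94 and Chek1 at -1.54. The pocket protein Rbl2 (p130), which represses E2F genes in resting cells, was higher at 0.84. CDK inhibitors split, with Cdkn1a (p21) at 1.59 and Cdkn1c (p57) at 1.22 higher and Cdkn2a at -3.01 lower. Of the 7 genes listed under quiescence, Tob1 (0.66), Btg2 (0.55) and Btg1 (0.22) were higher and 3 were lower. Of all genes, 25.5% were called higher and 27.1% lower.

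**Figure D4:**
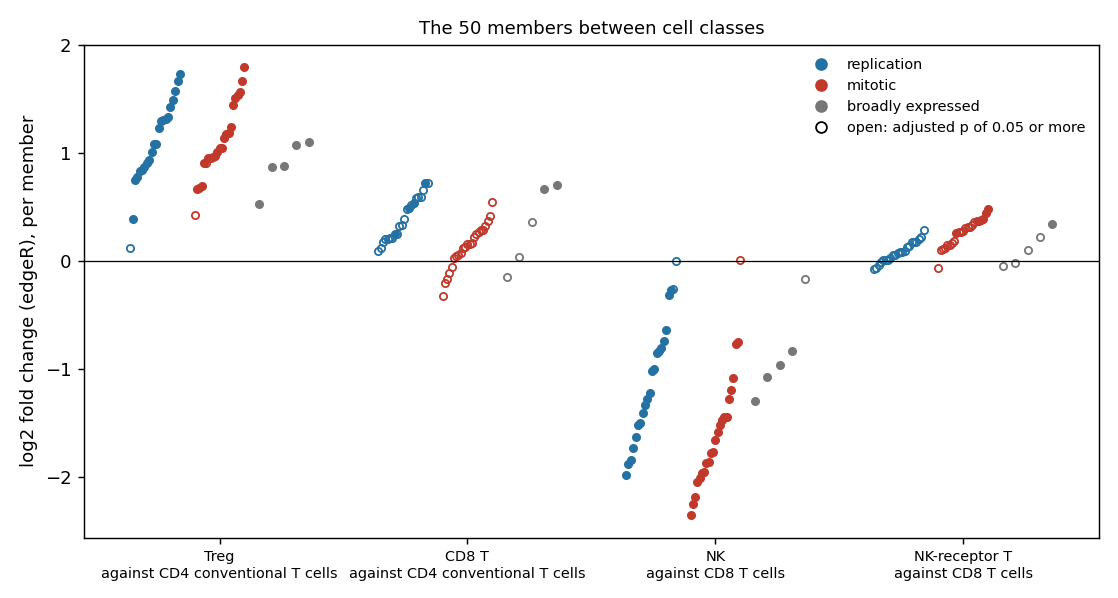
log2 fold change (edgeR) of each of the 50 genes in 4 comparisons between classes of the same libraries; points are genes, coloured by role, and open points had an adjusted p of 0.05 or more. The 47 genes called in Treg cells lie above 0 and the 46 called in NK cells lie below 0.

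NK-receptor T cells, which have both T cell and NK receptor transcripts and can include doublets of a T and an NK cell, were set against CD8 T cells. By edgeR 8 genes were higher and 0 lower (8.69% of 10995 genes called higher), and 7 of the 8 are mitotic. The kinetochore gene Cenpf stood at 11.9, 88.1, 64.1, 29.0, 13.5 and 87.2 CPM in NK-receptor T cells and 7.15, 68.5, 43.5, 21, 10.1 and 48.0 CPM in CD8 T cells, higher in all 6 libraries (0.48 ± 0.07; edgeR adjusted p = 9.4e-05). Its partner Cenpe stood at 13.6, 72.2, 65.1, 29.1, 15.9 and 72.3 CPM against 8.50, 59.6, 42.2, 23, 13.6 and 46.1 CPM (0.38 ± 0.07). Cks1b, a CDK subunit, stood at 35.1, 139, 145, 52.6, 32.8 and 122 CPM against 20.3, 122, 82.8, 45, 33.6 and 79.8 CPM (0.34 ± 0.09). Cenpe was higher in every library and Cks1b in 5 of 6.

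Ccnb2 stood at 19.4, 72.5, 63.5, 30.2, 18.1 and 66.5 CPM in NK-receptor T cells (0.45 ± 0.11). The anaphase activator Cdc20 stood at 8.12, 30.7, 33.9, 14.3, 9.01 and 34.5 CPM against 5.14, 25.3, 25.8, 11.2, 8.29 and 15.2 CPM (0.39 ± 0.11). Its ubiquitin-conjugating partner Ube2c stood at 27.4, 187, 138, 53.0, 23.8 and 169.8 CPM against 14.3, 147, 103, 48.2, 27.1 and 77.1 CPM (0.37 ± 0.11). Without BrM 3 or MFP 3 the count was 4, and without BrM 1 it was 5, with the share of all genes called in these fits not given. The direction of this contrast rested on the gates: with gates read on thinned cells 37 of the 50 genes were lower in NK-receptor T cells and 0 higher (10.6% of genes called lower), at a median of -0.55.

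The site of the tumour was the study's own comparison. In CD4 conventional T cells all 50 genes had a positive log2 difference, BrM over MFP, at a median of 1.31 against 0.03 for all genes, but 0 passed the edgeR test at an adjusted p under 0.05. Over all genes 0.0103% of 9724 were called. At an unadjusted p under 0.05, 43 of the 50 passed, against 1615 of the 9724 genes. DESeq2 called 14 of the 40 it adjusted, all higher in BrM (1.12% of 6142 genes called higher). The levels of 14 of the 44 genes with at least 10 CPM did not overlap, BrM above MFP, and 0 did so the other way; of all genes at that level 8.80% had BrM above MFP. These 14 include all 6 helicase subunits, Mcm2 to Mcm7. Without BrM 1, which leaves BrM with libraries of higher UMI total only, 45 of the 50 genes were higher in BrM by edgeR (8.73% of genes called higher), at a median of 1.79.

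In CD4 conventional T cells Stmn1 stood at 207, 412 and 504 CPM in BrM and 134, 107 and 201 CPM in MFP, and Hmgb2 at 944, 1471 and 2024 CPM against 731, 667 and 758 CPM. The sites did not overlap for either gene. Mcm5 ran from 31.6 to 72.5 CPM in BrM and from 17.0 to 29.8 CPM in MFP, also without overlap (log2 difference 1.29 ± 0.30; edgeR adjusted p = 0.18). Mki67, at 72.1, 169 and 179 against 64.0, 33.6 and 137 CPM, did overlap (1.04 ± 0.46; edgeR adjusted p = 0.30), as did Rrm2 (1.73 ± 0.45; edgeR adjusted p = 0.18) and Top2a (1.05 ± 0.38; edgeR adjusted p = 0.23).

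The difference in CD4 conventional T cells stood in both kinds of library. With library kind as a term 5 genes were higher in BrM (0.208% of genes called higher): Stmn1 (1.12 ± 0.16), Ube2c (1.43 ± 0.23), Ccna2 (1.63 ± 0.27), Cks2 (0.78 ± 0.14) and Cks1b (1.27 ± 0.24). Ccna2, which is cyclin A2, stood at 13.7, 41.1 and 62.4 CPM in BrM and 7.14, 3.74 and 16.2 CPM in MFP, lowest in the lower libraries of each site. In BrM 1 against MFP 1 and 2, 21 genes were higher (4.15% of genes), at a median of 0.61. In BrM 2 and 3 against MFP 3, 29 were higher (4.44% of genes), at a median of 1.19. In each of these fits by kind 1 site has a single library, which is assumed to vary like those of the other site. Genes called in both fits were Birc5, Ccna2, Cdk1, Cks1b, Hmgb2, Mcm3, Mcm5, Mcm7, Pclaf, Rrm2, Stmn1 and Ube2c. Each fit called a large part of the members, so some overlap would arise by chance. The overlap was not compared with that level and does not show that the same genes recur. By role, the lower libraries gave 6 of 22 replication and 11 of 23 mitotic genes, and the higher libraries 18 of 22 and 7 of 23. Of 9 marker lists checked in this class, 1 did not overlap between the sites: the NK and cytotoxic genes Gzma, Klrd1, Tyrobp and Prf1 summed to 275, 269.8 and 359 CPM in BrM and 645, 519.6 and 1041 CPM in MFP. The Treg genes outside the gate overlapped, at 697 to 1622 CPM in BrM and 955 to 1605 CPM in MFP. The part of these in the site difference was not tested.

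Treg cells gave 0 called genes by edgeR over the 6 libraries (0.0688% of 7268 genes called). At an unadjusted p under 0.05 they gave 21, against 980 of the 7268 genes. DESeq2 called 1 of the 26 members it adjusted (1.32% of 2195 genes called). The edgeR median was 0.70, and 47 of the 50 differences were positive. Of 49 genes with at least 10 CPM, 8 lay higher in every BrM library than in any MFP library, against 8.73% of all genes: Mcm4, Mcm5, Pcna, Tyms, Rrm2, Gins2, Fen1 and Lig1, all of them replication genes. Rrm2 was at 132 to 333 CPM in BrM and 34.7 to 114 CPM in MFP. Without BrM 1, 11 genes were higher in BrM (1.88% of genes called higher). The median was 0.45 without BrM 3, 0.43 without MFP 2 and 1.07 without MFP 1.

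Some Treg cells also had Cd8 UMIs: 6.44, 27.6 and 14.7% in BrM and 36.8, 17.6 and 14.8% in MFP. Without them, an alternative added after the data were seen, 22 of 47 genes tested were higher in BrM (4.44% of 6357 genes), at a median of 1.24. They were 18 of 22 replication genes, 4 broadly expressed ones and 0 of 20 mitotic genes. Rrm2 (1.82), Gins2 (1.88) and Cdc45 (2.03) had the largest values among the called replication genes. Within the lower libraries the median of all Treg cells was 0.06 and within the higher ones 0.93, and with library kind as a term 0.43.

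In CD8 T cells the site difference took opposite signs in the lower and the higher libraries. Over all 6 libraries 0 of the 50 genes were called by edgeR, and DESeq2 called 0. Among all genes edgeR called 0% of 9964. At an unadjusted p under 0.05 there were 0 of the 50, against 581 of the 9964 genes. The median was 0.33. Mki67 stood at 26.4, 214 and 122 CPM in BrM and 93.9, 45.3 and 190.0 CPM in MFP, so that the sites overlapped widely (0.19 ± 0.67; edgeR adjusted p = 0.97). Mcm5, at 16.8, 80.0 and 58.1 against 45.8, 37.4 and 69.3 CPM, overlapped in the same way. In the lower libraries alone, BrM 1 was below MFP 1 and 2 for 39 genes (5.19% of genes called lower), at a median of -1.04, with Pclaf at -1.97 and Mki67 at -1.29. In the higher libraries the median was 0.21. Over both kinds the median was -0.25 with library kind as a term and -0.11 without BrM 2.

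NK cells gave 0 called genes of 47 tested by edgeR (0% of 10409 genes). At an unadjusted p under 0.05 they gave 6, against 914 of the 10409 genes. DESeq2 called 0 but adjusted only 9 of the 47 (1.76% of 2336 genes called). By DESeq2 11 of the 47 had an unadjusted p under 0.05, against 659 of 10407 genes. The edgeR median was 0.91, with all 47 positive. Mitotic genes had a median of 1.20 and replication genes 0.64. Without BrM 1, 23 genes were higher in BrM (3.86% of genes called higher), at a median of 1.48. Without BrM 2 the median was 0.17, with 0 genes called by edgeR and 0 at an unadjusted p under 0.05. Adding library kind to the fit gave a median of 0.20. In the higher libraries 14 genes were higher in BrM (1.76% of genes called higher), led by Ube2c (2.31) and Pclaf (1.25), at a median of 0.77. In the lower libraries 2 genes were lower in BrM (1.49% of genes called lower), Pclaf (-1.01) and Tubb5 (-0.31), at a median of -0.21.

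Whether the site difference itself differed between the kinds of library was tested in edgeR with an interaction term, added after the data were seen. It called 0 of the 50 genes in each of 6 classes, and DESeq2 was not run on it. In CD8 T cells 33 genes had an unadjusted p under 0.05, against 1645 of all 10726 genes (0.00932% called). The median interaction was 1.27, higher libraries over lower. In NK cells these values were 20 genes against 1343 of 11163 (0.0269% called) and a median of 1.03. In CD4 conventional T cells they were 14 against 1483 of 10657 (0.507%) and 0.62. In Treg cells they were 11 against 675 of 8355 (0%) and 0.84. Gamma-delta T cells gave 11 of 45 genes against 830 of 9012 (0.732%) and 0.74. NK-receptor T cells gave 7 against 1360 of 11430 (0.0787%) and 0.33, a count near the share of all genes.

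In the other classes tested by site the 50 genes gave 0 calls over the 6 libraries, by edgeR with its filter on low counts and by DESeq2. T cells without Cd4 or Cd8 UMIs, dendritic cells and neutrophils were not tested between sites. In these T cells 11 of the 37 genes with at least 10 CPM lay higher in every BrM library than in any MFP library. The other way it was 0, and 13.4% of all genes had BrM above MFP. DESeq2 adjusted only 32 of the 40 genes tested in gamma-delta T cells and 4 of the 14 in B cells. NK-receptor T cells had a median of 0.51. At an unadjusted p under 0.05 they had 2 of the 50 genes, against 683 of 10635 genes (0% of all genes called). The median was 0.02 with library kind as a term, -0.12 in the lower and 0.11 in the higher libraries, and 0.20 without MFP 2. Gamma-delta T cells had 40 genes tested, a median of 0.10 and 0 genes at that level, against 1133 of 7876 genes (0.775% of all genes called). Their median was -0.34 in the lower and 0.33 in the higher libraries, -0.15 with library kind as a term and -0.23 without BrM 2. In the higher libraries Hmgb2 (0.38) and Kif23 (1.72) were higher in BrM (4.17% of genes called higher). This count in gamma-delta T cells is near the share over all genes and does not set the members apart. B cells had 14 genes tested and a median of -0.15. At an unadjusted p under 0.05 they had 0 genes, against 382 of 4997 genes (0% called). Macrophages had a median of -0.01 and 4 genes at an unadjusted p under 0.05, while 5.19% of their genes were called. In their higher libraries the spindle genes Nusap1 (-0.57) and Prc1 (-0.46) were lower in BrM (8.26% of genes called lower), and with library kind as a term Ube2c (0.59) was higher (4.39% called higher). Neither of these macrophage counts exceeded the share over all genes, so they do not set the members apart. Without MFP 3 the macrophage median was 0.41 over 22 genes tested. Monocytes had 25 genes tested, a median of 0.51 and 1 gene at that level (1.29% called). With no filter on low counts Hmgb2 (0.72), Stmn1 (0.83) and Mki67 (1.00) were higher in BrM monocytes (1.65% of genes called higher).

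**Figure D5:**
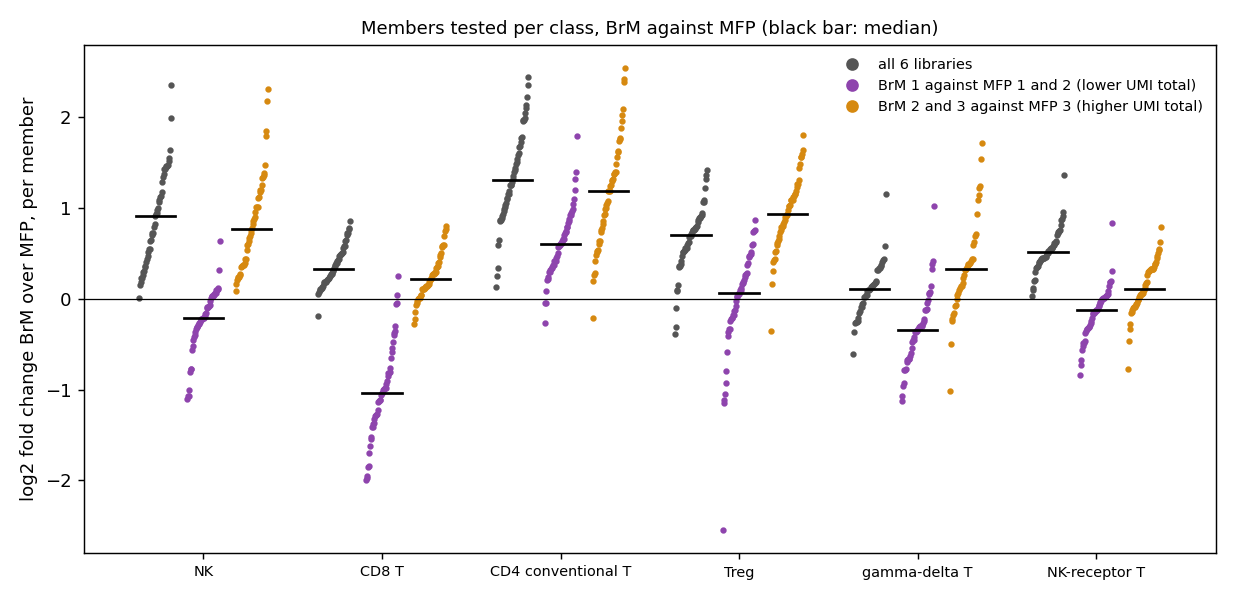
log2 fold change of each gene tested, BrM over MFP, in 6 classes over all 6 libraries, the libraries of lower UMI total and those of higher UMI total; points are genes and bars are medians. The CD4 conventional T cell medians are 1.31, 0.61 and 1.19, while those of CD8 T cells are 0.33, -1.04 and 0.21.

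Cks1b, Hmgb2 and Tubb5 belong to families with similar copies, so that reads shared with a copy could not be traced in these counts.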

How the data were processed

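The files hold whole UMI counts for each gene in each barcode, as the authors deposited them, not normalized. Cell Ranger 4.0 and build mm10 are named per the submitters' processing notes, with no annotation release. The members and all lists were chosen with earlier results of these data known. Cells were kept with at least 500 UMIs, 200 genes and at most 10% mitochondrial UMIs. Gates on raw UMIs needed at least 2 CD3, 2 NK, 3 B, 1 Foxp3, 2 Trdc, 1 Cd8 or 1 Cd4 UMIs. Cells that met gates of several lineages were left out, microglia were joined to macrophages, and macrophage and monocyte tests, the stricter cycling call, gates on thinned cells, Treg cells without Cd8 UMIs and the interaction of site and library kind were added after the data were seen. Scrublet's automatic threshold marked 0.0125 to 3.04% of cells, so doublets were not removed, and removing the top 7% of scores is an alternative. UMIs were summed per library and class (at least 20 cells) and tested with edgeR 4.0.16 (R 4.3.3; quasi-likelihood, TMM, filterByExpr, Benjamini-Hochberg over all genes, threshold 0.05), with DESeq2 1.42.0 as an alternative. The script was tested on simulated counts. Thinning used seed 1; binomial intervals are exact, at 95%, and cover counting error only. Values in every library are given for 7 members (Mki67, Top2a, Mcm5, Pcna, Rrm2, Cdk1, Hmgb2) in at least 1 comparison and for the 6 members of smallest p in each comparison with calls.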

Additional observations from a re-analysis of the deposited data

Results flagged for a closer look

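In some classes BrM minus MFP took opposite signs in the 3 libraries of lower and the 3 of higher UMI total, with every BrM library on the same side of the MFP libraries within its kind; none of these differences between kinds was tested for the summed values. In NK cells the replication UMIs differed by -18.4 CPM in the lower and 372 CPM in the higher libraries, and the share of cycling cells by the stricter call by -0.178 and 3.17 percentage points. In CD8 T cells the replication UMIs differed by -542 and 345 CPM. In NK-receptor T cells the share of cells by the first call differed by -2.37 and 2.33 percentage points. In B cells, which had no cell past the stricter call, the replication UMIs differed by 11 and -190.0 CPM.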

How the results depend on the processing

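Counts of the 50 genes called between sites were 0 for the 7 lymphocyte classes tested, in the main fit and with the replicate block. The block joins libraries that share only a number. The correlation of same-numbered libraries was -0.17 for number 2 in CD4 conventional T cells and negative for number 2 in the other classes tested. Leaving out single libraries gave 0 to 23 in NK, 0 to 45 in CD4 conventional T, 0 to 11 in Treg and 0 to 1 in B cells, the highest count each time without BrM 1. The 23, 45 and 11 were all higher in BrM. In those fits 3.86% of all genes in NK, 8.73% in CD4 conventional T and 1.88% in Treg cells were called higher. In B cells without BrM 1, 10.2% of all genes were called in either direction. In the lower libraries the counts were 2 in NK, 39 in CD8 T, 21 in CD4 conventional T and 1 in NK-receptor T cells. In the higher libraries they were 14 in NK, 29 in CD4 conventional T, 2 in gamma-delta T and 1 in NK-receptor T cells. For NK-receptor T cells the share of all genes called in these fits is not given. The next counts are of called genes, all higher in BrM, with the share of all genes called in either direction. CD4 conventional T cells gave 43 with no filter on low counts (2.64% of 17336 genes). They gave 14 by DESeq2 (1.87% of 6142) and 5 with library kind as a term (0.664% of 10085). Treg cells gave 21 with no filter (1.26% of 15095), 1 by DESeq2 (1.32% of 2195) and 22 without cells with Cd8 UMIs (6.62% of 6357).

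Between classes, gates read on thinned cells gave 26 genes for Treg against CD4 conventional T cells (47 in the main fit), 37 for CD8 against CD4 conventional T cells (6) and 37 for NK-receptor T against CD8 T cells (8), the last in the opposite direction. Without the library term these counts were 8, 0 and 0. Of all genes, 14.6% were then called in either direction in the first contrast and 17.4% in the second. The share in the last contrast is not given. CD8 against CD4 conventional T cells gave 20 with no filter (17.6% of all genes called in either direction). It gave 1 in the BrM libraries in the opposite direction (11.5%) and 40 in the MFP libraries (30.8%). It gave 1 in the lower (18.6%) and 3 in the higher libraries (11.5%). The counts of 1 and 3 do not set the members apart from other genes. Leaving out single libraries gave 2 to 16. For NK-receptor T against CD8 T cells the share of all genes called is not given for the next counts. They therefore do not set the members apart from other genes. This contrast gave 19 with no filter, 3 by DESeq2, 5 with gates 1 UMI stricter and 18 without the top Scrublet scores. It gave 2 in the MFP libraries, 2 in the lower libraries in the opposite direction and 13 in the higher libraries. It gave 4 to 11 leaving out single libraries. With gates on thinned cells its log2 differences were -0.33 for Cenpf, -0.65 for Ube2c, -0.61 for Cks1b, -0.25 for Cenpe, -0.30 for Cdc20, -0.55 for Mki67, -0.26 for Ccnb2 and -0.55 for Birc5. The cause of these changes was not tested. NK against CD8 T cells gave 45 to 48 called genes leaving out single libraries. The share of all genes called in these fits is not given. Of the values for single genes in this contrast under an alternative, 763 kept direction and call and 18 lost the call. For Treg against CD4 conventional T cells these were 755 and 90.

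The share of cells past the first call depended on depth. Thinned to 1000 UMIs it was 3.70% in NK, 12.4% in CD8 T, 8.68% in CD4 conventional T, 21.8% in Treg, 5.10% in gamma-delta T and 1.34% in B cells. At 3000 UMIs these were 27, 36.7, 39.8, 49.0, 30.7 and 20.9%. Not thinned they were 47.4, 70.5, 63.7, 69.9, 61.5 and 32.3%, and 75.6% in NK-receptor T cells. A call of 3 UMIs from 2 genes gave 29.0, 36.8, 38.4, 49.5, 32.5 and 26.1%. A call of 6 UMIs from 3 genes gave 4.54% in NK, 14.2% in CD8 T, 10.8% in CD4 conventional T, 6.34% in gamma-delta T and 1.35% in B cells. The stricter call gave 2.09% in NK, 9.32% in CD8 T, 6.18% in CD4 conventional T, 18.5% in Treg, 3.62% in gamma-delta T, 12.1% in NK-receptor T and 0% in B cells. The mitotic share of B cells was 26.3% without Mki67, Top2a and Pcna, against 22.1%; that of NK cells was 22.9% against 23.9% and that of gamma-delta T cells 25.6% against 27.1%.

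Marker gates rest on transcripts alone, Treg cells number 68 to 233 per library, and neutrophils and B cells hold fewer UMIs per cell than T cells before thinning.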

Other observations

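Genes of the cell cycle outside the 50 were compared between cycling T and NK cells and the other T and NK cells of the same library, as a description with no test. Of these 43 genes, 27 were higher in cycling cells in all 6 libraries and 8 lower in all 6. All 10 licensing and checkpoint genes were higher in every library. Geminin (Gmnn), which blocks renewed licensing, had means of 198 CPM in cycling and 30.7 CPM in other cells. Fbxo5 had 158 against 3.65 CPM, and the atypical E2F repressor E2f8 had 31.1 against 0.455 CPM.

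The D-type cyclin Ccnd2, a driver of G1, went the other way. It stood at 242, 160.3 and 169 CPM in cycling cells of BrM 1 to 3 and 204, 180.3 and 156 CPM in those of MFP 1 to 3. In the other cells it stood at 525, 371 and 410.4 CPM and 428, 436 and 428 CPM. Cycling cells were thus below the other cells of the same library in all 6. Both pools join the T and NK classes, whose make-up differs between them: over all libraries 0.888% of NK cells and 16.5% of Treg cells were cycling. No value within 1 class was computed. Its partner kinase Cdk4 was higher in cycling cells, at a mean of 146 against 57.1 CPM. The anti-proliferative gene Btg1 had means of 551 and 1351 CPM, Btg2 362 and 702 CPM, and the CDK inhibitor Cdkn1b (p27) 99.5 and 159 CPM. Cycling cells held more UMIs each, and CPM values within a cell are shares of its total.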
